A study of Mus musculus with 2 samples.

Results

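The prostaglandin and leukotriene synthesis genes described here are *Pla2g2d*, *Pla2g7*, *Ptgs1*, *Ptgs2*, *Ptges*, *Ptgis*, *Hpgds*, *Alox5*, *Alox5ap* and *Ltc4s*. They were chosen by symbol, and all 10 were found, each in 1 row, among the 32287 features of the count matrices. All 10 had unique molecular identifiers (UMIs) in the kept cells of both libraries. The data were 2 droplet-based scRNA-Seq libraries of hind limb muscle cells taken at 7 dpi (7 days after crush of the peroneal nerve). The IgG group received goat anti-mouse IgG and the SPP1-nAb group received an antibody that neutralizes SPP1 (osteopontin), with the same nerve injury, each at 2 μg in 10 μL into the tibialis anterior (TA) muscle, repeated every 2 days. The labels give male C57BL/6J mice aged 10 to 16 weeks and no further allele, whereas the methods of the study describe the *S100GFP*-tg reporter line, in which GFP marks Schwann cells. According to those methods mice were pooled, their number is not given, and each group is 1 library. The labels and the cell isolation methods name TA and gastrocnemius muscle, whereas the results of the study name TA alone for this experiment. The library titles speak of GFP-positive cells although GFP-positive and GFP-negative live cells were both sorted. No uninjured and no uninjected library was analysed here, so both groups share the injury, the injections and the sort.

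Phospholipases free arachidonic acid from membranes, and cyclooxygenases (PTGS1 and PTGS2, also called COX-1 and COX-2) convert it into prostaglandin H2. Terminal synthases then make prostaglandin E2 (PTGES), prostacyclin (PTGIS) or prostaglandin D2 (HPGDS). In the leukotriene branch, ALOX5 with its activating partner ALOX5AP makes leukotriene A4, to which LTC4S couples glutathione to give leukotriene C4. In injured tissue these lipids are known as regulators of blood flow, vessel permeability, leukocyte recruitment and pain, and prostaglandin E2 is known to act on muscle stem cells. PLA2G7 is a secreted enzyme that breaks down platelet-activating factor and oxidized phospholipids, and PLA2G2D is a secreted phospholipase described in antigen-presenting cells and macrophages of lymphoid tissue.

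*Ptgs1* and *Ptgs2* encode enzymes for the same step, and their promoters are shown because the order of cell classes by level differed between these paralogs. Neutrophil-like cells were among the leading classes of both. The sequences are from RefSeq on GRCm38.p6, plus strand, from 220 bases before to 30 bases after the annotated start, at chr2:36230206-36230455 for *Ptgs1* and chr1:150099811-150100060 for *Ptgs2*. Capitals mark matches to the motifs searched, which were the cAMP response element core ACGTCA, the C/EBP-type site TTGCGCAA, the E-box CACGTG and the TATA-type box TATAAA, each on both strands.
Ptgs1 promoter: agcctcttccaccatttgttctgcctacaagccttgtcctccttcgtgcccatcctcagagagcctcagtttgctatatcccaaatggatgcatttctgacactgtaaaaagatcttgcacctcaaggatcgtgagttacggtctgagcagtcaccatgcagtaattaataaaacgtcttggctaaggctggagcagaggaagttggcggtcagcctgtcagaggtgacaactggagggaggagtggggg
Ptgs2 promoter: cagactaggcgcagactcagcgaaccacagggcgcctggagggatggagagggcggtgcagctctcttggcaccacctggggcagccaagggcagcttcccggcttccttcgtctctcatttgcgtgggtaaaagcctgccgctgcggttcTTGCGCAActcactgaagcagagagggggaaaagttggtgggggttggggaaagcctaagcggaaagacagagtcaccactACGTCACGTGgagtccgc
In *Ptgs2* the C/EBP-type site began at base -69 from the start, the response element core at base 13 and the E-box at base 17, and the last pair overlapped. *Ptgs1* held none of the 4 motifs in its window. All positions hold for the annotated starts used here, and bases more than 30 after a start were not searched. Of 32851 promoters of mouse genes, in windows from 220 bases before to 30 bases after the start, 6.90% held the response element core, 0.161% the C/EBP-type site, 6.37% the E-box and 11.7% the TATA-type box. Of the 8 members with a promoter in the table, *Ptgs2* alone held any of these motifs. That count depends on the choice of these 4 motifs, since no others were searched, and nothing is read from it about the other members. A match in these letters is a description and not evidence of binding.

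The kept cells numbered 21047 with 81653026 UMIs in the IgG library and 22282 with 107481293 UMIs in the SPP1-nAb library, with medians of 3631 and 4568 UMIs per cell. Each cell was assigned by its own counts to the marker list of which it expressed the most genes, at least 3 of 8, and none of the members is in a marker list. Levels are UMIs of the gene per 1000000 UMIs of all cells of the class (CPM), and their 95% intervals cover counting error only, since 1 library per group gives no replicate check and no test. Classes with at least 50 cells in both libraries were used. They were mononuclear phagocyte-like cells (11543 IgG, 14773 SPP1-nAb), neutrophil-like cells (494, 1145), cDC2-like (473, 427), cDC1-like (333, 294) and mregDC-like dendritic cells (93, 121), mesenchymal-like cells (2378, 981), tenocyte-like cells (681, 414), endothelial-like cells (412, 331), pericyte or smooth muscle-like cells (188, 129), satellite cell or myoblast-like cells (1214, 873) and Schwann-like cells (429, 449). The phagocytes were divided further by 8-gene lists into states named here by those lists, and the states are ranges rather than cell types, since 28.7% to 72.0% of the cells of each state other than the remainder (other phagocytes) led the next list by 1 marker. Schwann-like cells were 2.04% and 2.02% of the kept cells, although both titles speak of GFP-positive cells. Mast cells, which are known for prostaglandin D2 and leukotriene C4, were at 0 cells in IgG and 1 cell in SPP1-nAb, so the levels below hold almost no mast cell RNA. A lone library per group means that the antibody and any other difference between the libraries cannot be told apart.

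Each member had a cell class in which it was highest, and for 8 of the 10 members this was the same class or state in both libraries. *Ptgs2*, *Alox5*, *Alox5ap* and *Pla2g7* were highest in neutrophil-like cells, *Ltc4s* in the resident macrophage state, *Hpgds* in the Gpr34 Fcrls macrophage state, *Ptges* in mesenchymal-like cells and *Ptgis* in tenocyte-like cells. *Pla2g2d* and *Ptgs1* had different leading classes in the libraries. The Spearman correlation of a member's level over 18 classes and states between the libraries ran from 0.71 for *Pla2g2d* to 0.97 for *Ptgs2*, given as a description, since the points share 2 libraries and many were near 0. The plot of levels by class shows these distributions.

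**Figure D1:**
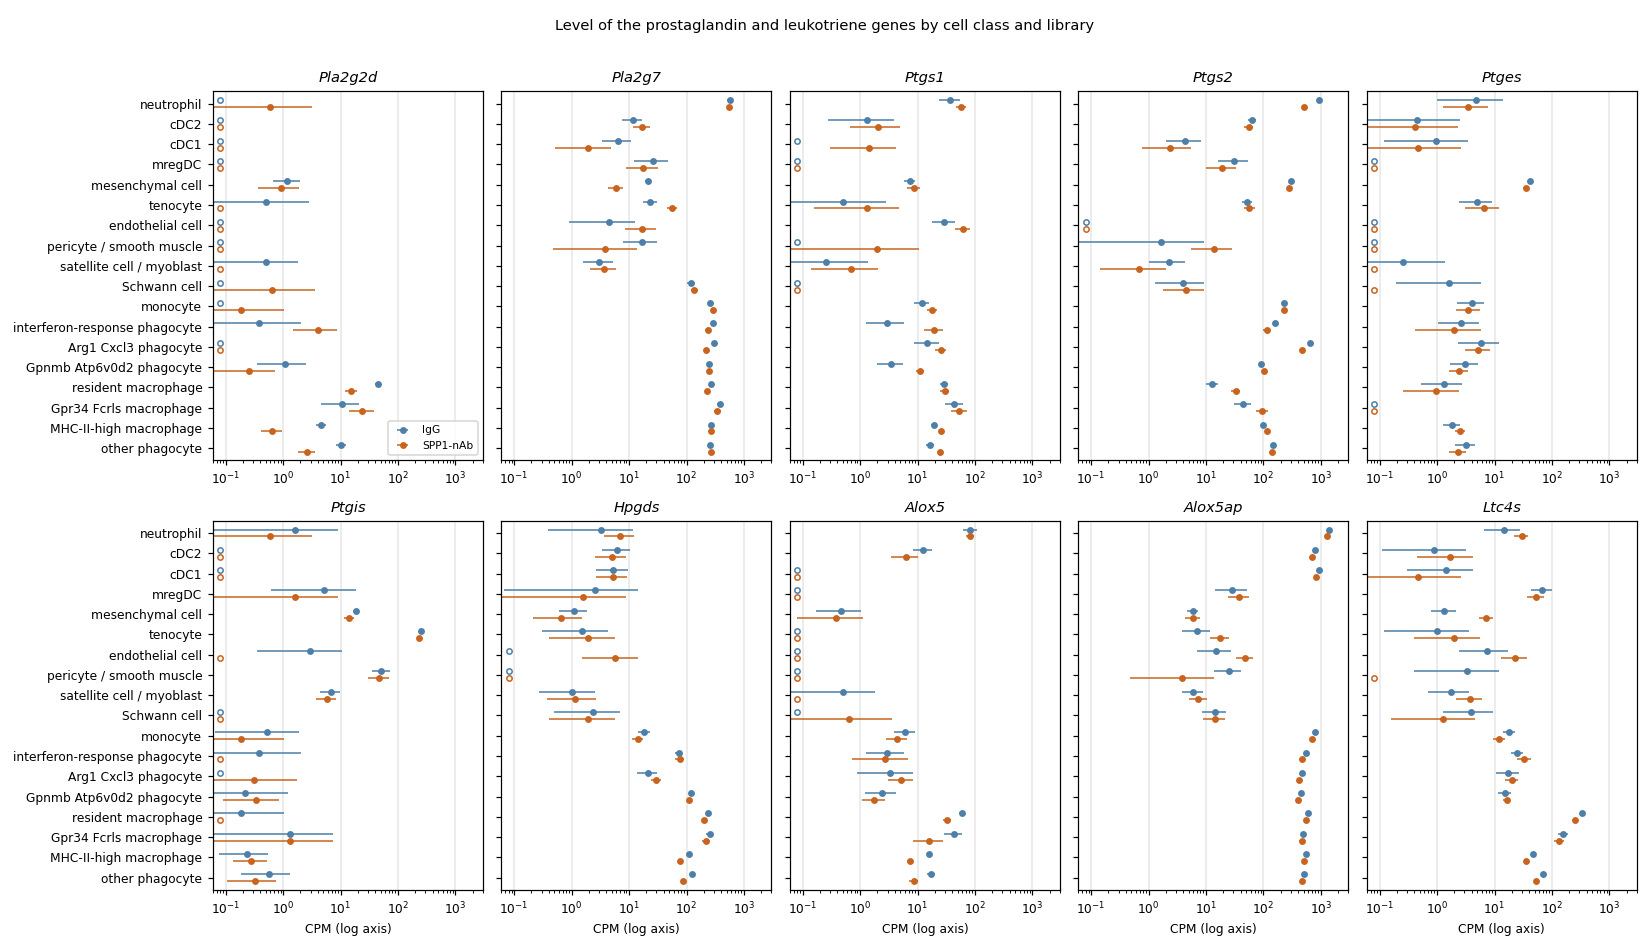
Level of each of the 10 genes (CPM, log axis) in 10 cell classes and 8 phagocyte states of the IgG library (blue) and the SPP1-nAb library (orange). Points are 1 library each, bars are exact 95% counting intervals, and open circles at the left edge stand for 0 UMIs. *Ptgs2* reached 944 CPM in IgG neutrophil-like cells and was at 0 UMIs in endothelial-like cells of both libraries, while *Ptgis* was at 254 and 234 CPM in tenocyte-like cells.

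The question of the design was whether levels differed between muscle treated with IgG and with SPP1-nAb. A gene was compared in a class when it had at least 50 UMIs there over both libraries, and was counted when its ratio was at least 1.5-fold in either direction. Of 190 pairs of a member and 1 of 19 classes or states, 90 had enough UMIs and 22 were past 1.5-fold, 11 higher and 11 lower in SPP1-nAb. In all mononuclear phagocyte-like cells 3 of 9 members were past 1.5-fold, all lower in SPP1-nAb, against 14% of all genes with 50 UMIs there (3.65% higher and 10.4% lower), and the median log2 ratio of the members was -0.18 against -0.05 for all genes. In neutrophil-like cells 3 of 6 members were past 1.5-fold (2 higher, 1 lower) against 17.8% of all genes. Mesenchymal-like cells had 2 of 7 (1 higher, 1 lower) against 15.1%, tenocyte-like cells 1 of 3 against 11.2% and endothelial-like cells 1 of 1 against 13.3%. No member was past 1.5-fold in cDC2-like cells (0 of 3, background 10.5%), cDC1-like cells (0 of 1, 9.63%), mregDC-like cells (0 of 1, 17.9%), pericyte or smooth muscle-like cells (0 of 1, 11.8%), satellite cell or myoblast-like cells (0 of 2, 14.3%) or Schwann-like cells (0 of 1, 7.51%). With so few members per class these shares are read as counts only.

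Among the phagocyte states, resident macrophages had 3 of 8 members past 1.5-fold (1 higher, 2 lower) against 10.7% of all genes, other phagocytes 3 of 9 (1 higher, 2 lower) against 9.91% and MHC-II-high macrophages 2 of 9, both lower, against 12.3% (3.52% higher and 8.81% lower). Monocytes had 1 of 6 against 7.12%, Arg1 Cxcl3 phagocytes 1 of 6 against 11.4%, Gpnmb Atp6v0d2 phagocytes 1 of 6 against 7.32% and Gpr34 Fcrls macrophages 1 of 6 against 11.6%, each higher in SPP1-nAb. Interferon-response phagocytes had 0 of 5 against 10.8%. In the states *Pla2g2d* and *Alox5* were past 1.5-fold lower in SPP1-nAb, and *Ptgs1* and, in 2 states, *Ptgs2* higher. *Ltc4s* was past 1.5-fold lower over the whole phagocyte class and in none of its states. States overlap with the phagocyte class that holds them, so these counts are not independent of each other. The plot of ratios shows each compared pair.

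**Figure D2:**
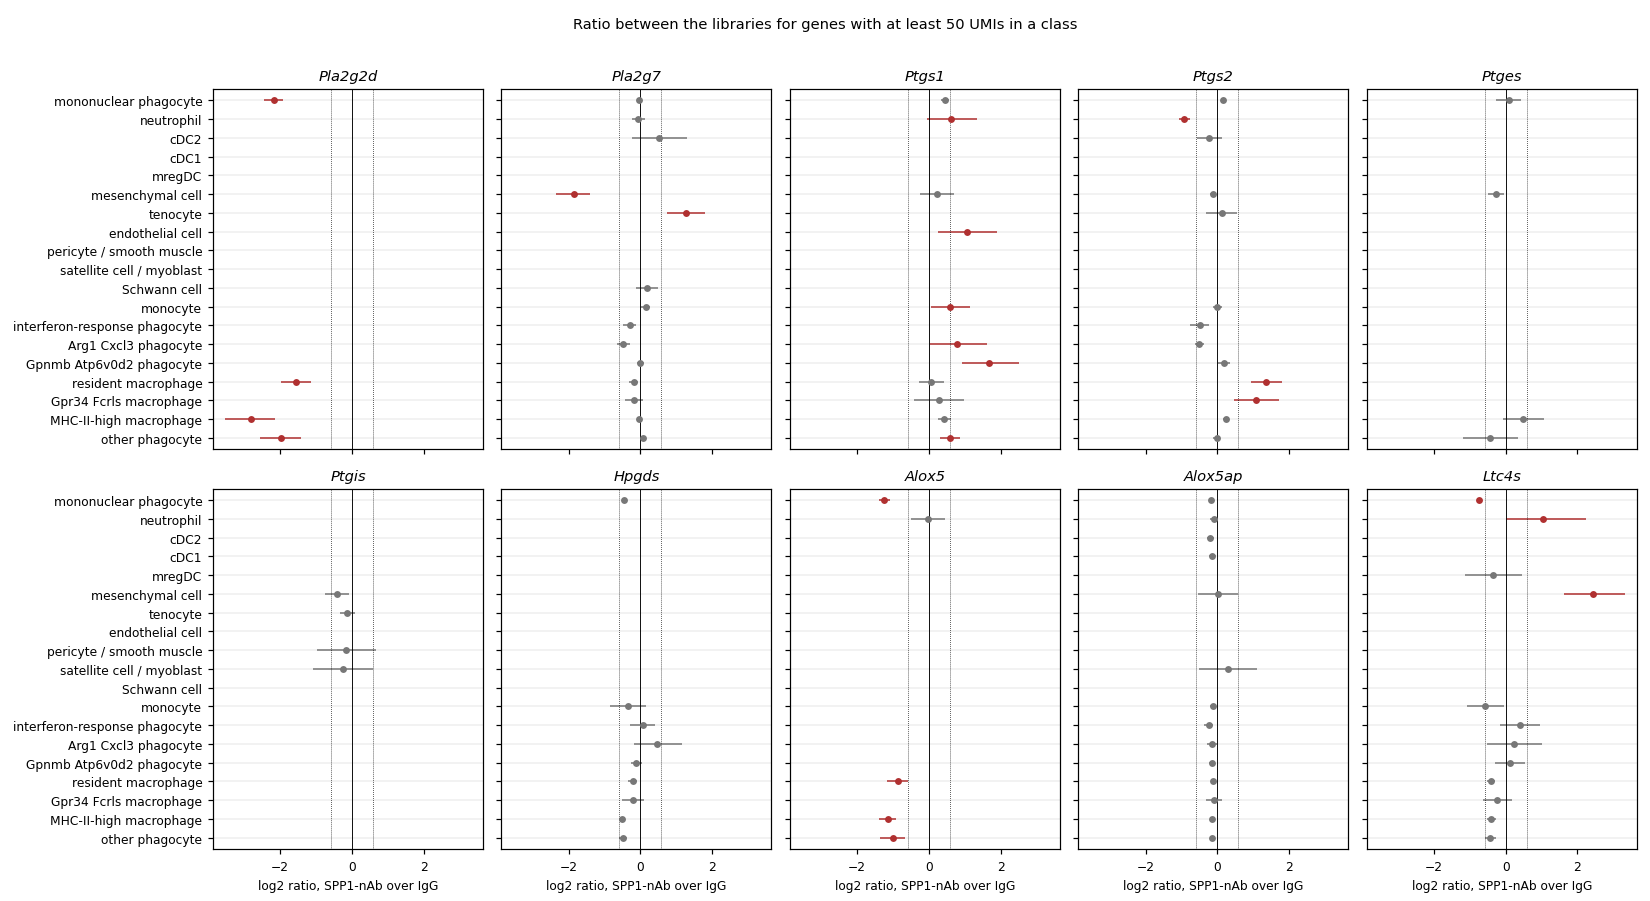
Log2 ratio of the level in SPP1-nAb over IgG for each gene with at least 50 UMIs in a class or state, with exact 95% counting intervals. Red points are past 1.5-fold (dotted lines) and grey points are not. *Pla2g2d* and *Alox5* lie to the left of 0 in each phagocyte group shown in red. *Ptgs1* lies to the right of 0 in every group compared, with intervals that include 0 in some. *Alox5ap* is past the dotted lines in none.

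*Pla2g2d* (ENSMUSG00000041202, GRCm39 chr4:138503046-138509357), the secreted phospholipase, was a gene of resident macrophages in these libraries. Mononuclear phagocyte-like cells held 94.0% of its UMIs in IgG and 93.4% in SPP1-nAb. In the resident macrophage state its level was 44.6 CPM (39.1 to 50.7, 237 UMIs) in IgG against 15.3 CPM (11.8 to 19.5, 64 UMIs) in SPP1-nAb, a log2 ratio of -1.55 (-1.97 to -1.14). Over all phagocyte-like cells it was at 8.99 CPM (439 UMIs) and 1.98 CPM (155 UMIs), a log2 ratio of -2.18 (-2.46 to -1.92). It was lower in SPP1-nAb in every phagocyte group with enough UMIs, with 4.51 and 0.646 CPM in MHC-II-high macrophages (-2.81, -3.53 to -2.14) and 10.2 and 2.59 CPM in other phagocytes (-1.98, -2.55 to -1.42). The Gpr34 Fcrls state, at 10.7 and 24.0 CPM, and the interferon-response state, at 0.373 and 4.0 CPM, had higher values in SPP1-nAb, on 8 against 18 and 1 against 6 UMIs, too few to be compared, and those 18 UMIs came from at most 10 cells. At an equal depth of 2000 UMIs per cell, a *Pla2g2d* UMI was found in 7.22% of resident macrophages (5.86 to 8.78) in IgG and 3.35% (2.23 to 4.8) in SPP1-nAb. In satellite cell or myoblast-like cells, which should lack the gene, it was found in 0 of 875 and 0 of 742 cells at that depth, from median depths of 2578 and 3620 UMIs against 3781 and 4431 in resident macrophages. The resident state itself held 11.8% of phagocyte-like cells in IgG and 6.11% in SPP1-nAb, and the part of this difference in the ratio over all phagocytes was not tested.

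The same direction was seen in clusters made from variable genes without the gates, and the members and *Spp1* were left out of those genes. In the cluster led by *Lyve1*, *Fcna* and *Cd163*, which held 90.5% of the gated resident macrophages in IgG and 73.9% in SPP1-nAb, *Pla2g2d* was at 43.1 CPM and 20.0 CPM. In the cluster led by *Bank1*, *St3gal6* and *Ccl4* it was at 5.70 CPM (50 UMIs) and 0.373 CPM (3 UMIs). These were the only clusters with at least 50 UMIs of the gene.

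*Pla2g7* (ENSMUSG00000023913, chr17:43878846-43923289), the hydrolase of platelet-activating factor, was a broad phagocyte and neutrophil gene with similar levels in both libraries. In neutrophil-like cells it was at 562 CPM (505 to 624) in IgG against 542 CPM (507 to 578) in SPP1-nAb, and in all phagocyte-like cells at 266 and 259 CPM. The phagocyte states ran from 243 to 389 CPM in IgG and from 221 to 346 CPM in SPP1-nAb, with the Gpr34 Fcrls state at the top in each. Arg1 Cxcl3 phagocytes had 307 CPM (276 to 339) against 221 CPM (205 to 238), a difference larger than counting error but under 1.5-fold. Dendritic-like cells lay far lower, with 11.6 and 16.7 CPM in cDC2-like and 6.32 and 1.90 CPM in cDC1-like cells.

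Schwann-like cells had *Pla2g7* at 119 CPM (101 to 140, 151 UMIs) in IgG against 136 CPM (118 to 156, 211 UMIs) in SPP1-nAb. The level expected there from free RNA was 5.15 and 6.54 CPM. At 2000 UMIs per cell a UMI was found in 20.7% (16.5 to 25.5) and 21.7% (17.8 to 26.2) of Schwann-like cells, against 0.800% and 0.943% of satellite cell or myoblast-like cells, whose median depths before thinning were 2578 and 3620 UMIs against 2781 and 3254 in Schwann-like cells. *Pla2g7* was above the free-RNA level in these glia in both libraries.

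In stromal cells *Pla2g7* was past 1.5-fold in opposite directions. Mesenchymal-like cells had 21.1 CPM (18.7 to 23.8, 268 UMIs) in IgG against 5.82 CPM (4.25 to 7.79, 45 UMIs) in SPP1-nAb, a log2 ratio of -1.86 (-2.35 to -1.40), where free RNA would give 2.20 and 3.64 CPM. Its mesenchymal UMIs were concentrated in a cluster led by *Adamtsl2*, *Kcnb2* and *Dlk1*, with 134 CPM, which held 242 cells in IgG and 3 cells in SPP1-nAb. Without that cluster the log2 ratio was -0.79. The other mesenchymal clusters did not share 1 direction. *Pla2g7* was at 66.7 and 26.6 CPM (66 and 10 UMIs) in the cluster led by *A2m*, *Tenm2* and *Foxd1*. In the cluster led by *Inmt*, *C7* and *Fgf10* it was at 4.75 and 8.61 CPM (log2 0.86, -0.06 to 1.73). In the cluster led by *Lrrc15*, *Fetub* and *Ltbp2* it was at 6.99 and 4.66 CPM (-0.58, -1.41 to 0.23). Tenocyte-like cells had 23.5 CPM (17.3 to 31.2, 47 UMIs) against 56.3 CPM (45.1 to 69.5, 87 UMIs), a log2 ratio of 1.26 (0.73 to 1.81). Of the 87 tenocyte UMIs in SPP1-nAb 49.4% came from 10 cells, and at 2000 UMIs per cell the shares of tenocyte-like cells with a UMI were 5.13% (3.28 to 7.60) and 6.39% (3.95 to 9.70), which overlap. The mean of each cell's own CPM gave a log2 ratio of 0.73.

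*Ptgs1* (ENSMUSG00000047250, chr2:36120438-36142287), the constitutive cyclooxygenase, was at a low level in several cell classes. It was higher in SPP1-nAb in each of the 11 classes and states with enough UMIs, by 0.07 to 1.67 on the log2 scale. Most of the 11 were the phagocyte class and states within it, so these are not independent. How many genes went the same way throughout was not counted. Intervals included 0 in neutrophil-like cells, resident macrophages, mesenchymal-like cells (0.22, -0.26 to 0.69) and Gpr34 Fcrls macrophages (0.28, -0.42 to 0.99). The highest levels of *Ptgs1* were in Gpr34 Fcrls macrophages (44.0 CPM in IgG, 53.4 CPM in SPP1-nAb), neutrophil-like cells (36.8 and 57.0 CPM), endothelial-like cells (29.4 and 61.4 CPM) and resident macrophages (28.6 and 30.1 CPM). In IgG the intervals of these leading classes overlapped, so their order was not resolved. Mesenchymal-like cells had 7.33 and 8.54 CPM, and Schwann-like cells had 0 UMIs in both libraries, which allows up to 2.37 and 1.94 CPM at 3 UMIs.

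In endothelial-like cells *Ptgs1* had 20 UMIs in IgG (18.0 to 45.5 CPM) and 44 UMIs in SPP1-nAb (44.6 to 82.4 CPM), a log2 ratio of 1.06 (0.27 to 1.90). Few of these cells reached 2000 UMIs, and among them 6.02% (1.98 to 13.5, 83 cells) and 15.1% (8.88 to 23.4, 106 cells) had a *Ptgs1* UMI, intervals that overlap, against 0 of 333 and 0 of 391 Schwann-like cells, whose median depths were 2781 and 3254 UMIs against 1234 and 1376. Platelets are rich in this enzyme. A list of 8 platelet genes (*Ppbp*, *Itga2b*, *Gp9*, *Gp1bb*, *Tubb1*, *Treml1*, *Gp6* and *Itgb3*) was chosen after the values were seen. They summed to 13.2 CPM (9 UMIs) and 25.1 CPM (18 UMIs) in the same cells, with 6 and 4 of the 8 at 0, among them *Gp9*, *Gp6*, *Gp1bb* and *Treml1* in both libraries. In IgG the sum came from *Itga2b* and *Itgb3* alone. None of the 8 had 50 UMIs over both libraries there, so these sums are not read as a level of platelet RNA. Over the 19 classes and states the platelet sum ran from 1.94 to 227 CPM in IgG and from 1.90 to 127 CPM in SPP1-nAb. The part of platelets in the *Ptgs1* difference was not tested. Neutrophil-like cells had 23 and 98 UMIs and a log2 ratio of 0.63 (-0.04 to 1.35), an interval that includes no difference, and with free RNA removed the log2 ratio was 0.51, under 1.5-fold. Among the classes and states with at least 50 UMIs, Gpnmb Atp6v0d2 phagocytes had the largest ratio, with 3.5 CPM (2.00 to 5.68, 16 UMIs) against 11.1 CPM (9.30 to 13.2, 133 UMIs), a log2 ratio of 1.67 (0.92 to 2.52). It was 3.05 without the 10 cells with the most UMIs in each library, where few of the 16 IgG UMIs were left. The cluster holding most cells of this state differed, with 43.1% of them in the *Atp6v0d2* cluster in IgG and 43.8% in a cluster led by *Arg1*, *Spp1* and *Cxcl3* in SPP1-nAb. The platelet sum was 43.0 and 37.6 CPM in these phagocytes. It was 17.5 and 32.7 CPM (log2 0.90, 0.51 to 1.30) in resident macrophages, where *Ptgs1* was at 28.6 and 30.1 CPM (0.07, -0.28 to 0.42). In each of these states only 1 of the 8 platelet genes had 50 UMIs over both libraries. *Gp9*, *Gp1bb* and *Gp6* were at 0 in both libraries there, so the sums are not read as a level of platelet RNA. Interferon-response phagocytes, under the minimum with 8 and 29 UMIs, had 2.98 and 19.3 CPM (2.70, 1.53 to 4.04). Arg1 Cxcl3 phagocytes had 14.7 and 25.5 CPM (log2 0.79, 0.05 to 1.62), monocytes 12 and 18.1 CPM (0.60, 0.08 to 1.14) and other phagocytes 16.4 and 24.8 CPM (0.59, 0.32 to 0.88). The last 2 were each under 1.5-fold under 3 alternatives, monocytes at 0.52 without removal of doublets, 0.49 as the mean of each cell's CPM and 0.57 without shared barcodes, and other phagocytes at 0.56 without removal of doublets, 0.58 with more than 500 genes per cell and 0.57 as the mean of each cell's CPM. The whole phagocyte class had 16.9 CPM (15.8 to 18.1) against 23.1 CPM (22.1 to 24.2), a log2 ratio of 0.45 that is under 1.5-fold. MHC-II-high macrophages, with 408 and 915 UMIs, had 19.0 and 25.7 CPM (0.44, 0.27 to 0.61), also under 1.5-fold.

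Across clusters the direction of *Ptgs1* was uniform. In each of the 12 clusters with at least 50 UMIs of the gene it was higher in SPP1-nAb, 9 of them past 1.5-fold, with a median log2 ratio of 0.84 and a range from 0.09 in the *Lyve1* cluster (30.6 and 32.6 CPM) to 1.37 in the cluster led by *Atp6v0d2* and *Gpnmb* (7.02 and 18.1 CPM). The cluster led by *Nrg1*, *Ccl24* and *Cxcl3* had 16.8 and 37.2 CPM. The share of all genes past 1.5-fold was not counted by cluster, so the count has no background. Most of these were phagocyte clusters, and the others were of neutrophil-like, mesenchymal-like and endothelial-like cells. Clusters of 1 library pair are not replicates, so this count says that the difference was found in these clusters and not that it would recur in other mice.

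*Ptgs2* (ENSMUSG00000032487, chr1:149975194-149983978), the inducible cyclooxygenase, was highest in neutrophil-like cells, with 944 CPM (870 to 1024, 590 UMIs) in IgG against 498 CPM (465 to 533, 857 UMIs) in SPP1-nAb. The log2 ratio was -0.92 (-1.08 to -0.77). Free RNA was estimated at 15.7% of neutrophil UMIs in IgG and 5.04% in SPP1-nAb, which would give 21.2 and 6.71 CPM of *Ptgs2*, and with free RNA removed the log2 ratio was -1.08. Few neutrophil-like cells reached 2000 UMIs (9 and 86), so shares were also taken at 1000 UMIs per cell, where 94 and 107 shallower cells were left out. There 37.8% of neutrophil-like cells (33.0 to 42.7) in IgG and 25.2% (22.6 to 28) in SPP1-nAb had a *Ptgs2* UMI, and without thinning the shares were 40.1% and 30.8%. Endothelial-like cells, with nearly the same median depth (1234 and 1376 UMIs, against 1234 and 1382 in neutrophil-like cells), had none in 274 and 233 cells.

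A list of 8 immediate-early genes (*Fos*, *Fosb*, *Jun*, *Junb*, *Egr1*, *Ier2*, *Atf3* and *Dusp1*), chosen after the values were seen, summed in neutrophil-like cells to 7292 CPM in IgG against 5370 CPM in SPP1-nAb, a log2 ratio of -0.44. Of the 8 genes, 2 were past 1.5-fold lower in neutrophil-like cells, against 5.85% of all genes. The count was 6 in MHC-II-high macrophages and in Gpnmb Atp6v0d2 phagocytes, 5 in other phagocytes and in satellite cell or myoblast-like cells, and 4 in cDC1-like cells. It was 0 in tenocyte-like, pericyte or smooth muscle-like, Schwann-like and mregDC-like cells. Over the 19 classes and states 3.31% to 10.4% of all genes were past 1.5-fold lower. The sum was lower in SPP1-nAb in 18 of 19 classes and states, mregDC-like cells being the exception. The states lie within the phagocyte class, and the interval of the ratio in Schwann-like cells included 0 (-0.04, -0.08 to 0.01). *Ptgs2* was lower in SPP1-nAb in 7 of the 13 in which it could be compared, by under 1.5-fold except in neutrophil-like cells. In all phagocyte-like cells 6 of the 8 immediate-early genes were past 1.5-fold lower, against 10.4% of all genes. Their sum was at 7630 and 4766 CPM there, while *Ptgs2* was at 123 and 136 CPM. The part of cell dissociation, which is known to induce these genes, was not tested.

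Among the phagocyte states *Ptgs2* was highest in Arg1 Cxcl3 phagocytes and next in monocytes in both libraries. Arg1 Cxcl3 phagocytes had 653 CPM (608 to 699) against 462 CPM (439 to 486), which is under 1.5-fold, and at 2000 UMIs per cell 42.9% (36.3 to 49.6) and 37.1% (33.0 to 41.3) of them had a UMI. Monocytes had 225 and 224 CPM, interferon-response phagocytes 160 and 114 CPM, other phagocytes 146 and 143 CPM, MHC-II-high macrophages 98.2 and 116 CPM and Gpnmb Atp6v0d2 phagocytes 90.7 and 103 CPM. Of the gated interferon-response cells 82.5% and 76.8% lay in a cluster whose leading genes include *Rsad2* and *Ly6c2*, at 169 and 120 CPM. Another cluster, led by *Ifit3b*, *Gm4951* and *Ifit2*, was at 11.4 CPM (24 UMIs) and 30.5 CPM (64 UMIs). Resident macrophages were the lowest of the states, with 12.8 CPM (9.95 to 16.2, 68 UMIs) in IgG against 33.0 CPM (27.7 to 38.9, 138 UMIs) in SPP1-nAb, a log2 ratio of 1.36 (0.93 to 1.80). Of the 138 UMIs, 72.5% came from 10 cells, and without the 10 cells with the most UMIs in each library the log2 ratio was 0.51. With the class taken from the cluster it was 0.52, and at 2000 UMIs per cell 1.88% (1.21 to 2.79) and 2.51% (1.56 to 3.81) of resident macrophages had a UMI. The Gpr34 Fcrls state had 44.0 CPM (33 UMIs) and 93.5 CPM (70 UMIs), a log2 ratio of 1.09 (0.47 to 1.73), with 93.9% and 85.7% of the UMIs in 10 cells and free RNA estimated at 1.84% and 20.1% of its UMIs. Without the 10 cells with the most UMIs in each library the log2 ratio of *Ptgs2* in this state was 2.36. That value rests on the few UMIs left, under the minimum for a comparison, and is not read as a larger difference.

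Mesenchymal-like cells were the main source of *Ptgs2* outside leukocytes, with 301 CPM (292 to 311) in IgG against 278 CPM (266 to 290) in SPP1-nAb. At that depth of 2000 UMIs 25.1% (23.3 to 27.0) and 23.9% (21.2 to 26.7) of them had a UMI. The cluster led by *Inmt*, *C7* and *Fgf10* was at 440 and 519 CPM, and the cluster led by *Lrrc15*, *Fetub* and *Ltbp2* at 175 and 197 CPM. Each of these clusters was higher in SPP1-nAb although the class was lower, and the *Inmt* cluster held 1413 cells in IgG and 272 in SPP1-nAb. Mesenchymal-like cells held 34.7% of the UMIs of *Ptgs2* in the IgG library and 15% in the SPP1-nAb library, while phagocyte-like cells held 54.5% and 74.6%. Tenocyte-like cells had 52.5 and 57.0 CPM and cDC2-like cells 64.2 and 55.0 CPM.

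**Figure D3:**
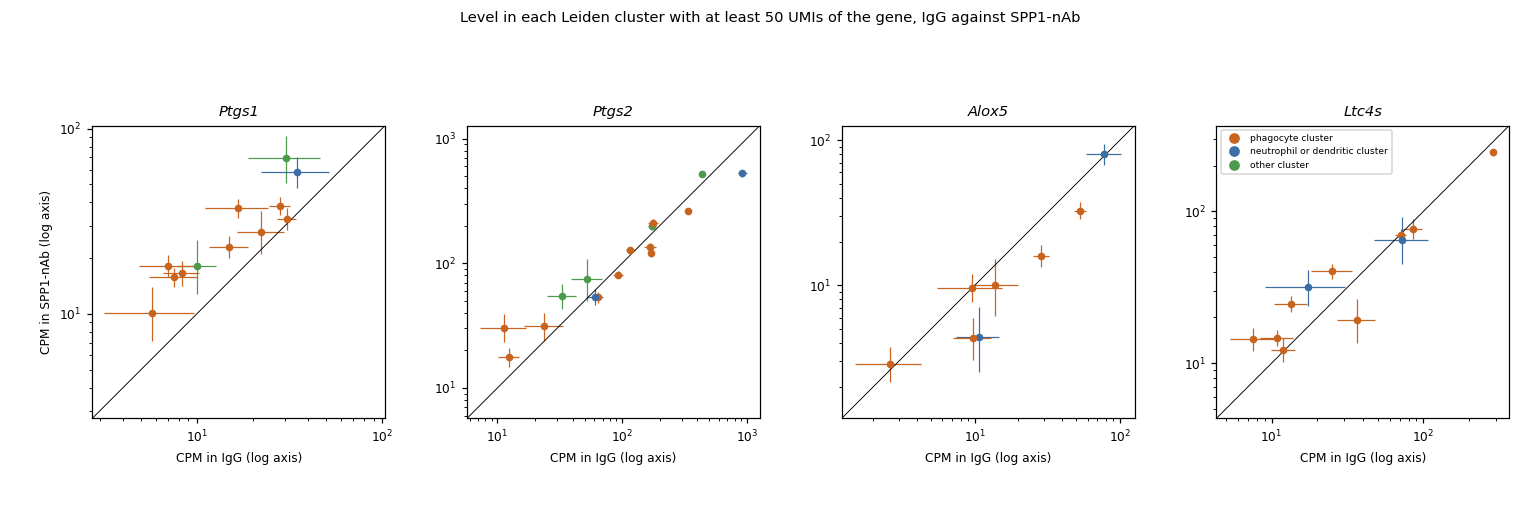
Level of *Ptgs1*, *Ptgs2*, *Alox5* and *Ltc4s* in each cluster with at least 50 UMIs of the gene, IgG on the horizontal and SPP1-nAb on the vertical axis (CPM, log axes), with exact 95% counting intervals and a line of equality. Orange marks phagocyte, blue neutrophil or dendritic and green other clusters. All 12 points of *Ptgs1* lie above the line, 5 of 8 of *Alox5* lie below it, and *Ptgs2* and *Ltc4s* lie on both sides.

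*Ptges* (ENSMUSG00000050737, chr2:30779483-30820196), the inducible synthase of prostaglandin E2, was a mesenchymal gene. Mesenchymal-like cells had 41.9 CPM (38.4 to 45.6, 532 UMIs) in IgG against 34.8 CPM (30.8 to 39.2, 269 UMIs) in SPP1-nAb, a log2 ratio of -0.27. They held 77.9% and 53.8% of the UMIs of the gene. All other classes and states were at or below 6.48 CPM, with 2.40 and 2.53 CPM in phagocyte-like cells and 0 UMIs in endothelial-like and pericyte or smooth muscle-like cells. A *Ptges* UMI was found in 8.21% (7.10 to 9.43) and 6.47% (4.98 to 8.23) of mesenchymal-like cells, against 0.409% and 0.461% of phagocyte-like cells, at 2000 UMIs per cell. *Ptgs2* and *Ptges* were both highest, among the classes that are not leukocytes, in mesenchymal-like cells. They were not found together more often there. *Ptges* was in 6.46% of these cells with a *Ptgs2* UMI and 8.80% without in IgG, and in 6.22% and 6.55% in SPP1-nAb. The cluster led by *A2m*, *Tenm2* and *Foxd1* had *Ptges* at 75.8 and 42.5 CPM and *Ptgs2* at 52.5 and 74.4 CPM. In the *Inmt* cluster *Ptges* was at 37.7 and 34.5 CPM and *Ptgs2* at 440 and 519 CPM.

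*Ptgis* (ENSMUSG00000017969, chr2:167033725-167083018), the prostacyclin synthase, marked tenocyte-like cells. It was at 254 CPM (233 to 277, 509 UMIs) in IgG against 234 CPM (210 to 259, 361 UMIs) in SPP1-nAb, and 36.2% (31.7 to 40.8) and 36.1% (30.8 to 41.7) of tenocyte-like cells had a UMI at 2000 UMIs per cell. Phagocyte-like cells, at 0.328 and 0.281 CPM, had a UMI in 0.0558% and 0.0922% of cells. Tenocyte-like cells held 60.1% and 63.3% of its UMIs in all kept cells. Pericyte or smooth muscle-like cells came next with 51.5 CPM (35.0 to 73.2, 31 UMIs) against 46.4 CPM (29.7 to 69.1, 24 UMIs). Their UMIs lay in the cluster led by *Pln* and *Myh11*, smooth muscle genes, at 72.7 and 75.8 CPM, whereas the cluster led by *Kcnj8* and *Rgs5*, pericyte genes, had 0 UMIs in both libraries. Mesenchymal-like cells had 18.7 CPM (16.4 to 21.2) against 14 CPM (11.5 to 16.9), and endothelial-like cells, a textbook source of prostacyclin, had 2 UMIs in IgG and 0 in SPP1-nAb, at median depths of 1234 and 1376 UMIs per cell.

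*Hpgds* (ENSMUSG00000029919, chr6:65094001-65121983), the synthase of prostaglandin D2, was a macrophage gene, with 97.9% and 98.1% of its UMIs in phagocyte-like cells. The Gpr34 Fcrls state had 254 CPM (220 to 293) in IgG against 220 CPM (188 to 257) in SPP1-nAb, and resident macrophages had 233 CPM (221 to 247) against 202 CPM (189 to 216). These states did not differ beyond their intervals in either library. Gpnmb Atp6v0d2 phagocytes had 119 and 110 CPM and MHC-II-high macrophages 111 and 77.2 CPM. Monocytes were lower, at 18.1 and 14.3 CPM, as were Arg1 Cxcl3 phagocytes at 21.3 and 29.5 CPM. Over all phagocyte-like cells the gene was at 118 CPM (115 to 121) against 86.2 CPM (84.1 to 88.3), which is under 1.5-fold. Neutrophil-like cells had 3.20 and 6.97 CPM, where free RNA would give 11.3 and 3.22 CPM.

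*Alox5* (ENSMUSG00000025701, chr6:116387032-116438139), which starts leukotriene synthesis, was highest in neutrophil-like cells with intervals that overlap between the libraries, at 83.2 CPM (62.2 to 109, 52 UMIs) in IgG against 81.9 CPM (69.0 to 96.6, 141 UMIs) in SPP1-nAb. In macrophages it was lower in SPP1-nAb. Resident macrophages had 60.1 CPM (53.7 to 67.0, 319 UMIs) against 33.0 CPM (27.7 to 38.9, 138 UMIs), a log2 ratio of -0.87 (-1.17 to -0.57). MHC-II-high macrophages had 16.1 and 7.30 CPM (-1.14, -1.38 to -0.91) and other phagocytes 17.1 and 8.53 CPM (-1.0, -1.35 to -0.66). Over all phagocyte-like cells the level was 18.4 CPM (17.2 to 19.7, 899 UMIs) against 7.78 CPM (7.18 to 8.43, 609 UMIs), a log2 ratio of -1.24 (-1.39 to -1.09). Resident macrophages were 11.8% of phagocyte-like cells in IgG and 6.11% in SPP1-nAb. Of the MHC-II-high macrophages, 40.6% in IgG and 23.4% in SPP1-nAb lay in the *Bank1* cluster. The part of these differences in the *Alox5* ratios was not tested. The Gpr34 Fcrls state had 42.6 and 16.0 CPM on 44 UMIs, under the minimum. At 2000 UMIs per cell 11.5% (9.76 to 13.3) and 5.85% (4.36 to 7.67) of resident macrophages had an *Alox5* UMI, against 0 of 875 and 0 of 742 satellite cell or myoblast-like cells.

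The lower *Alox5* was found in some phagocyte clusters and not in others. The *Lyve1* cluster had 53.5 and 32.7 CPM and the *Bank1* cluster 28.8 and 16.0 CPM. The 8 clusters with enough UMIs were not all of phagocytes, and 4 of the 8 were past 1.5-fold, all lower in SPP1-nAb. Among these was a cluster led by *Cd7* and *Cd209a*, in which cDC2-like cells were the most common class. Its log2 ratio was -1.27 (-2.23 to -0.38, 35 and 16 UMIs). The share of all genes was not counted by cluster, so nothing is read from the count of clusters past 1.5-fold. The *Nrg1* *Ccl24* cluster had 9.57 and 9.67 CPM on 16 and 78 UMIs. Monocytes, with 6.12 and 4.44 CPM, and interferon-response phagocytes, with 2.98 and 2.67 CPM, had too few UMIs to be compared. cDC1-like, tenocyte-like and endothelial-like cells had 0 UMIs in both libraries.

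*Alox5ap* (ENSMUSG00000060063, chr5:149196003-149227762), the membrane partner of ALOX5, was the most widely detected member in leukocytes. It was past 1.5-fold in none of the classes and states with enough UMIs. Under the minimum, endothelial-like cells had 10 and 34 UMIs (log2 1.69, 0.64 to 2.87) and tenocyte-like cells 14 and 27 (1.32, 0.34 to 2.37). Pericyte or smooth muscle-like cells, also under it, had 15 and 2 UMIs (-2.69, -5.86 to -0.58). Neutrophil-like cells had 1361 CPM in IgG against 1276 CPM in SPP1-nAb, cDC1-like cells 908 and 824 CPM, cDC2-like cells 794 and 695 CPM and monocytes 777 and 710 CPM. The other phagocyte states ran from 401 to 603 CPM over both libraries. mregDC-like cells stood apart from the other dendritic-like cells, with 28.4 CPM (14.2 to 50.7, 11 UMIs) against 38.2 CPM (24.5 to 56.9, 24 UMIs), where free RNA would give 16.9 and 51.2 CPM. Only 71.0% and 60.3% of the gated mregDC-like cells lay in the cluster led by *Il12b*, in which *Alox5ap* was at 44.7 and 67.1 CPM. At 2000 UMIs per cell 79.6% (74.8 to 83.8) and 76.3% (70.9 to 81.2) of cDC1-like cells and 3.45% (0.717 to 9.75) and 6.31% (2.57 to 12.6) of mregDC-like cells had an *Alox5ap* UMI, against 1.83% and 2.16% of satellite cell or myoblast-like cells. cDC1-like cells had *Alox5ap* at these levels with 0 UMIs of *Alox5*.

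*Ltc4s* (ENSMUSG00000020377, chr11:50127288-50129443), the synthase of leukotriene C4, was a resident macrophage gene. Resident macrophages had 328 CPM (313 to 344) in IgG against 248 CPM (233 to 264) in SPP1-nAb, a log2 ratio of -0.40, and at 2000 UMIs per cell 43.4% (40.7 to 46.2) and 34.8% (31.5 to 38.1) of them had a UMI. The Gpr34 Fcrls state followed with 156 and 132 CPM, other phagocytes with 70.0 and 51.8 CPM and MHC-II-high macrophages with 46.0 and 34.8 CPM. None of these states was past 1.5-fold. Over all phagocyte-like cells the level was 75.7 CPM (73.3 to 78.2) against 45.4 CPM (43.9 to 46.9), a log2 ratio of -0.74 (-0.80 to -0.67). Resident macrophages were 11.8% and 6.11% of phagocyte-like cells, and the part of this difference in the ratio over all phagocytes was not tested. Within clusters *Ltc4s* was higher in SPP1-nAb in 6 of 11 and lower in 5, and past 1.5-fold higher in 4 and lower in 1, with no share of all genes counted by cluster. It was at 13.4 and 24.7 CPM in the *Atp6v0d2* cluster (log2 0.88, 0.49 to 1.29), 289 and 244 CPM in the *Lyve1* cluster and 70.8 and 70.4 CPM in the *Bank1* cluster.

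Outside macrophages *Ltc4s* was found in mregDC-like cells at 67.0 CPM (43.8 to 98.2) against 52.6 CPM (36.2 to 73.8), above the 1.92 and 4.23 CPM that free RNA would give, while cDC1-like and cDC2-like cells were at or below 1.67 CPM. Neutrophil-like cells had 14.4 CPM (6.59 to 27.3, 9 UMIs) against 29.6 CPM (22.1 to 39.0, 51 UMIs), a log2 ratio of 1.04 (0.00 to 2.25). Free RNA would give 7.36 and 1.77 CPM there, and with it removed the log2 ratio was 1.81. Mesenchymal-like cells had 1.34 CPM (0.780 to 2.14, 17 UMIs) against 7.25 CPM (5.47 to 9.41, 56 UMIs), a log2 ratio of 2.44 (1.63 to 3.31), with 53.6% of the SPP1-nAb UMIs in 10 cells. Different clusters held most of this class, with 58.3% of its cells in the *Inmt* cluster in IgG and 62.7% in the *Lrrc15* cluster in SPP1-nAb. In the *Lrrc15* cluster *Ltc4s* was at 0.723 CPM (3 UMIs) and 7.89 CPM (44 UMIs), and in the *Inmt* cluster at 2.30 CPM (16 UMIs) and 5.26 CPM (11 UMIs). Thinned to 2000 UMIs, these were 0.271% (0.0994 to 0.588) and 1.59% (0.893 to 2.61) of mesenchymal-like cells, and without removal of doublets the log2 ratio was 1.37.

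Joint detection of members was also counted in phagocyte-like cells. At 2000 UMIs per cell *Ltc4s* was found in 3.11% (2.19 to 4.28) of cells with a *Ptgs2* UMI and 13.3% of cells without one in IgG, and in 3.52% (2.72 to 4.48) and 8.09% in SPP1-nAb. *Hpgds* was likewise less frequent with *Ptgs2*, in 10.5% against 20.6% of cells in IgG and 9.31% against 15.1% in SPP1-nAb. *Ltc4s* was found in 20.3% of cells with *Hpgds* and 10.3% of cells without it in IgG, and in 13.8% and 6.45% in SPP1-nAb. *Ltc4s* was in 28% of cells with *Alox5* and 11.6% of cells without it in IgG, and in 19.6% and 7.31% in SPP1-nAb. Cells with *Pla2g2d* had *Hpgds* in 41.5% in IgG and 37.5% in SPP1-nAb, against 19.2% and 14.3% of the others. The pairs that follow differed in direction between the libraries, but the intervals with and without the second gene overlapped in each library. No turn was resolved. *Pla2g7* was in 42.7% of cells with *Ptgs1* and 36.8% of cells without it in IgG, and in 35.1% and 36.3% in SPP1-nAb. *Ptgs1* was in 5.46% of cells with *Alox5* and 3.38% of the others in IgG, against 4.46% and 4.81% in SPP1-nAb, and *Ptgs2* by *Pla2g7* was at 10.6% and 10.9% in IgG and 13.3% and 12.6% in SPP1-nAb. These are shares over a mix of states, and shares at one depth depend on that depth. Within IgG resident macrophages *Ltc4s* was in 44.5% (36.3 to 53.0) of cells with *Alox5* and 43.3% of those without. With *Hpgds* it was in 43.5% (38.9 to 48.3) there, and in 43.3% without. In SPP1-nAb resident macrophages *Ltc4s* was in 40.9% (34.7 to 47.2) with *Hpgds* and 32.1% (28.4 to 36.1) without.

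**Figure D4:**
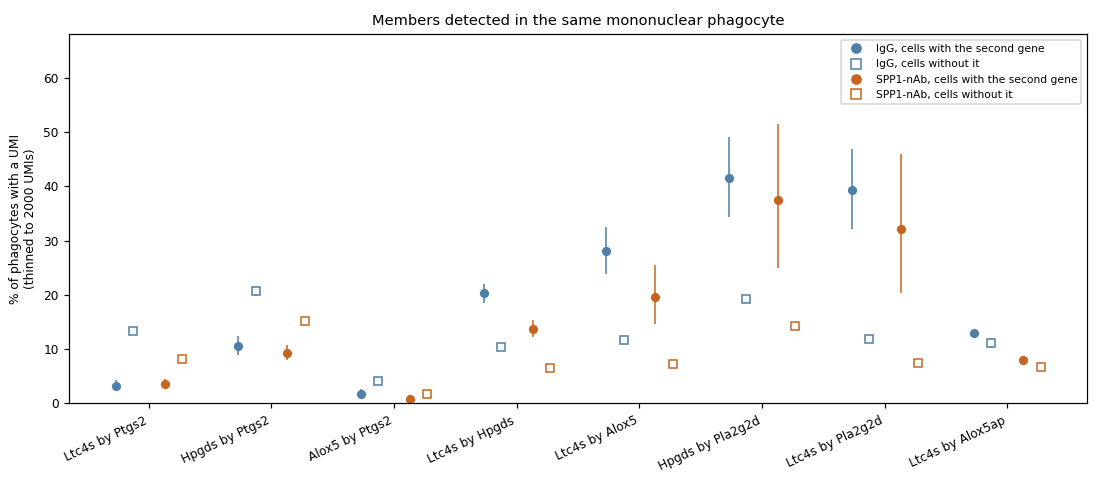
Percent of mononuclear phagocyte-like cells, thinned to 2000 UMIs, with a UMI of the first gene named on the horizontal axis, among cells with a UMI of the second gene (filled circles, exact 95% intervals) and without one (open squares). Blue is IgG and orange SPP1-nAb. For *Ltc4s* by *Ptgs2* the filled circles lie below the squares in both libraries (3.11% and 3.52% against 13.3% and 8.09%), and for the plotted pairs among *Ltc4s*, *Hpgds*, *Alox5* and *Pla2g2d* they lie above.

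The other genes of eicosanoid synthesis, transport and sensing were taken from a list of 48, of which 39 had at least 50 UMIs in some class. Of 351 pairs of a gene and a class or state, 22 were past 1.5-fold higher and 33 lower in SPP1-nAb, with a median log2 ratio of -0.03. In all phagocyte-like cells 1 was higher and 4 lower of 33, against 3.65% and 10.4% of all genes, and over the 19 classes and states from 7.12% to 17.9% of all genes were past 1.5-fold in either direction. States overlap with their class, so nothing is read from the counts by role. Transport and breakdown genes had 9 higher and 12 lower of 76, phospholipases and related genes 4 and 9 of 79, further prostanoid synthases 5 and 1 of 78, receptors 4 and 4 of 69, and further lipoxygenase or leukotriene enzymes 0 and 7 of 49. In the same order of roles the most abundant genes were *Hpgd*, *Lpcat2*, *Ptges3*, *Ptafr* (the receptor of platelet-activating factor) and *Lta4h* (which makes leukotriene B4). Over all kept cells their levels were 102 and 47.5 CPM for *Hpgd*, 65.4 and 71.8 CPM for *Lpcat2*, 286 and 283 CPM for *Ptges3*, 144 and 154 CPM for *Ptafr* and 34.1 and 33.0 CPM for *Lta4h*.

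*Hpgd*, the dehydrogenase that inactivates prostaglandins, was the breakdown gene with the most lower pairs. Resident macrophages had 439 CPM in IgG against 234 CPM in SPP1-nAb (log2 -0.91, -1.02 to -0.80), Gpr34 Fcrls macrophages 336 and 191 CPM (-0.81), MHC-II-high macrophages 153 and 60.5 CPM (-1.34) and cDC2-like cells 30.7 and 10.0 CPM (-1.62). Over all phagocyte-like cells it was at 149 and 57.0 CPM, a log2 ratio of -1.39 (-1.44 to -1.34). Resident macrophages were 11.8% and 6.11% of phagocyte-like cells, and the part of this difference in that ratio was not tested. Satellite cell or myoblast-like cells had 6.02 and 16.8 CPM, a log2 ratio of 1.48 (0.80 to 2.21) on 24 and 73 UMIs. The largest cluster of this class, the same in both libraries, held 55.5% of its cells in IgG and 79.0% in SPP1-nAb. Of the class, 54.1% in IgG and 48.5% in SPP1-nAb lay in the range around the gate. The part of this difference in cell mix in the *Hpgd* ratio of the class was not tested. The synthase *Hpgds* and the dehydrogenase *Hpgd* are distinct genes, and the synthase was under 1.5-fold in the same macrophages.

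Of the enzymes that act next to the members, *Dpep2*, which converts leukotriene D4 to E4, was at 19.3 and 12.2 CPM in phagocyte-like cells (log2 -0.67) and *Ggt5*, which acts on leukotriene C4, at 6.51 and 3.83 CPM (-0.76). *Pla2g4a*, the cytosolic phospholipase that frees arachidonate, was at 60.8 and 36.3 CPM in resident macrophages (-0.75) and 43.2 and 21.5 CPM in neutrophil-like cells (-1.01, -1.76 to -0.24). *Mgll*, which frees arachidonate from monoacylglycerol, was at 31.8 and 12.7 CPM in mesenchymal-like cells (-1.33) and 851 and 566 CPM in endothelial-like cells (-0.59), and higher in SPP1-nAb in MHC-II-high macrophages at 0.745 and 1.12 CPM on 16 and 40 UMIs (0.59, -0.28 to 1.53). *Abcc1*, an exporter of leukotriene C4, was at 28.8 and 50.0 CPM in neutrophil-like cells (0.79), 36.5 and 61.7 CPM in cDC2-like cells (0.76) and 51.1 and 79.6 CPM in monocytes (0.64), and lower in SPP1-nAb in tenocyte-like cells at 21.5 and 13.6 CPM (-0.66, -1.49 to 0.12). Among receptors of prostaglandin E2, *Ptger2* was at 8.25 and 12.4 CPM in phagocyte-like cells (0.59) and *Ptger4* at 31.0 and 20.2 CPM in Gpnmb Atp6v0d2 phagocytes (-0.62).

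By likeness of level over 36 points (18 classes and states in each library) among 11415 genes, the gene most like each member was *Tnfrsf17* for *Pla2g2d* (Pearson r = 0.94), *Ninj1* for *Pla2g7* (0.93), *Tmem164* for *Ptgs1* (0.88), *Fth1* for *Ptgs2* (0.84), *C3* for *Ptges* (0.85), *Ccdc3* for *Ptgis* (0.93), *Rragc* for *Hpgds* (0.95), *Siglece* for *Alox5* (0.95), *Cd53* for *Alox5ap* (0.98) and *Ly96* for *Ltc4s* (0.89). The next were *Lilra5* and *Gm13919*, *C5ar1* and *Gab2*, *Slc20a1* and *Ctbs*, *Ifrd1* and *Dram1*, *F3* and *Surf4*, *Greb1l* and *Cpxm2*, *Tlr7* and *Gm5086*, *Cd33* and *Pnpla7*, *Gm46224* and *Cyth4*, and *Spic* and *Klf6*, in the same order of members. The points share 2 libraries and their classes, and the values are descriptions on the log2(CPM + 1) scale.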

How the data were processed

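Counts were deposited by the authors for each of 2 10x libraries as UMIs per gene and barcode, without normalization, after Cell Ranger selected the barcodes. The file headers name Cell Ranger 9.0.1 and the labels 8.0.0 with GRCm39, and gene coordinates are from GENCODE for GRCm39. The 10 members and the lists were chosen with earlier results of these data known.

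A barcode was used if it had over 200 detected genes and a mitochondrial share of UMIs under 10%. Doublet scores came from 2 simulated doublets per barcode and 30 neighbors, and in each library the top 10% of scores was taken out, whatever the true rate. The libraries shared 163 barcodes, 129 of them kept in both. Cells were gated on 16 class lists and 9 phagocyte state lists of 8 markers each, ties stayed unassigned, and the cells with exactly 3 markers or a lead of 1 are a range around the gate. Classes under 50 cells in a library were not compared. UMIs were summed per class and library, with exact Poisson intervals of CPM, intervals of ratios from the binomial share of UMIs, and Clopper-Pearson intervals of shares (95%). Cells were thinned to 2000 UMIs for shares. Free RNA was estimated per class and library from marker genes that the class should lack. Separately, 2000 variable genes and 30 components were clustered by the Leiden algorithm (leidenalg 0.10.2) at resolution 1 without integration. The members and *Spp1* were left out of the variable genes. Clusters with at least 50 cells in each library were used. With 1 library per group there is no test and no p-value, and 50 UMIs over both libraries and a 1.5-fold ratio set which pairs were counted.

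Named genes are the 10 members in every class, the genes of the eicosanoid list past 1.5-fold with up to 3 per direction and class, the most abundant gene of each role, and the 3 genes most like each member among those with at least 500 UMIs. Not all of the second set are printed. Lists of immediate-early and platelet genes were added after the values were seen. The steps were tested on simulated data. Alternatives covered the gate, doublets, gene and mitochondrial filters, the denominator of CPM, free RNA, thinning, the fold and the UMI minimum. Python 3.11.15, numpy 2.4.6, scipy 1.17.1, pandas 2.3.3 and scikit-learn 1.9.0 were used.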

Additional observations from a re-analysis of the deposited data

Results flagged for a closer look

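Some members were past 1.5-fold in opposite directions in different classes, and the differences between the classes were not tested. The log2 ratio of *Pla2g7* was 3.12 higher in tenocyte-like than in mesenchymal-like cells. The log2 ratio of *Ptgs2* was 2.29 higher in resident macrophages and 2.01 higher in Gpr34 Fcrls macrophages than in neutrophil-like cells. The log2 ratio of *Ltc4s* was 1.78 higher in neutrophil-like and 3.17 higher in mesenchymal-like cells than in all phagocyte-like cells. Without the 10 cells with the most UMIs in each library the log2 ratio of *Ptgs2* was 0.51 in resident macrophages and 2.36 in Gpr34 Fcrls macrophages. The value in Gpr34 Fcrls macrophages rests on the few UMIs left there, under the minimum for a comparison.

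*Alox5ap* was also found in classes with under 50 cells, which entered no comparison. pDC-like cells (31 in IgG, 41 in SPP1-nAb) had 596 CPM and 791 CPM, and circulating-type monocytes (32 in each library) had 969.7 CPM and 931 CPM, against 6.02 and 7.36 CPM in satellite cell or myoblast-like cells.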

How the results depend on the processing

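None of the 90 log2 ratios with enough UMIs that was past 1.5-fold reversed under any alternative. A minimum of 200 UMIs left 11 of the 22 pairs, 1 of 3 in neutrophil-like cells and 1 of 2 in mesenchymal-like cells, because fewer pairs were compared, and a 2-fold limit left 1 of 3 in neutrophil-like cells. Pairs past 1.5-fold that were lost under some alternative were *Ptgs1* in neutrophil-like cells (log2 0.51 with free RNA removed), in monocytes (0.52 without removal of doublets, 0.49 as the mean of each cell's CPM, 0.57 without shared barcodes) and in other phagocytes (0.56 without removal of doublets, 0.58 with more than 500 genes, 0.57 as the mean of each cell's CPM), and *Ptgs2* in resident macrophages (0.52 by cluster, 0.51 without 10 cells), and the cause was not tested. Leaving out the 10 cells per library with the most UMIs of the gene moved *Ptgs1* from 1.67 to 3.05 in Gpnmb Atp6v0d2 phagocytes, from 0.79 to 2.18 in Arg1 Cxcl3 phagocytes and from 1.06 to 1.81 in endothelial-like cells, and *Ptgs2* from 1.09 to 2.36 in Gpr34 Fcrls macrophages. In the same order IgG had 16, 18, 20 and 33 UMIs before any cells were left out. These moved ratios rest on few IgG UMIs and are not read as larger differences. *Pla2g7* in mesenchymal-like cells ranged from -3.11 (free RNA removed) to -0.79 (without the *Adamtsl2* cluster), *Pla2g2d* in phagocyte-like cells from -2.54 to -2.15, *Alox5* there from -1.28 to -1.21 and *Ltc4s* there from -0.76 to -0.72. The alternatives that left out shared barcodes, the 10 cells with the most UMIs or the mesenchymal cluster were chosen after seeing the data. No paired analysis was possible because each group has 1 library. Depth limits *Pla2g2d*, *Ptgs1* and *Alox5* outside the larger classes, where few UMIs were counted, and no alternative replaces a replicate.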
